A study of Homo sapiens with 6 samples.

Results

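The genes of cholesterol and fatty acid synthesis were followed in RNA sequencing of a human colorectal cancer cell line after transfection of siRNA against the long noncoding RNA GLCC1. They were 32 genes, taken by symbol from the 56638 gene symbols in the count tables. The list holds 7 genes of the mevalonate pathway, 11 from squalene to cholesterol, the sterol carrier STARD4, 5 SREBP regulators, 7 genes of fatty acid synthesis and desaturation, and the phosphatidate phosphatase LPIN1. The list was drawn up with earlier results of these data known. All 32 passed the filter on low counts and were among the 23074 genes tested.

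Total RNA was sequenced from 6 libraries, 3 with a nonspecific control siRNA and 3 with siRNA against lncRNA-AF339830, the transcript named GLCC1, and the cells of both groups were grown in the same serum-containing medium. Libraries were grouped by their titles and are called control libraries and GLCC1 libraries. The number after siRNA in each title was taken as a replicate number, and the labels do not say whether it names different siRNAs. The genotype label of each library ends in siRNA1, and the labels do not say that replicates were separate cultures, so that the p-values measure the spread between these libraries, which may be technical. The labels name SW480 cells, whereas the methods of the study name DLD-1 cells for this experiment, and both are lines derived from colorectal tumours. The library names in the descriptions attach each group to the other siRNA. Under those names every direction given here would turn, and GLCC1 itself was not analysed here. FARP1, the protein-coding gene at the GLCC1 locus on chromosome 13, was at 109 to 113 CPM (read pairs per 1000000 counted on genes, after scaling) in the control libraries and at 63.2 to 65.6 CPM in the GLCC1 libraries, a fall of 0.77 on the log2 scale (SE 0.08, adjusted p = 9.2e-06).

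Cells make cholesterol from acetyl-CoA through mevalonate, isoprenoids, squalene and a series of sterol intermediates, and the same acetyl-CoA feeds fatty acid synthesis. The genes of these enzymes are switched on by SREBP transcription factors, which are made as precursors in the endoplasmic reticulum (ER) membrane. When sterols are scarce, SCAP escorts the precursors to the Golgi, where proteases release the active factor, and when sterols are plentiful, the INSIG proteins hold SCAP back in the ER. INSIG1 is itself an SREBP target, as are both SREBP genes in part, and rapidly growing tumour cells, those of the colon included, often make much of their own lipid.

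The libraries held between 11948790 and 19042516 read pairs counted on genes, and replicate 2 of the GLCC1 libraries held the fewest. That library stood apart from the others: the chi-square per degree of freedom between libraries of the same group was 1.84 to 3.84, but 16.3 and 17.1 for the pairs that include it. The results that rest on it are therefore given with and without it. Of the 11 colorectal epithelium markers, 10 had means above 1 CPM and KRT20 did not. The summed level of these markers was 5813 to 6351 CPM in the control libraries and 2485 to 2899 CPM in the GLCC1 libraries, mostly from KRT8. By edgeR, 7 of the 11 were lower, CDH17 was higher (log2 fold change 0.45), and CDX2 (-0.24), VIL1 (0.21) and KRT20 (-0.92) were not called. Markers of leukocytes, endothelium, hepatocytes and adipocytes each summed to 1.40 CPM or less in any library. Of the 4 fibroblast markers, COL1A2 and DCN were at 0, and the list summed to 16.1 to 19.9 CPM in control and 10.7 to 13.2 CPM in GLCC1 libraries. The part of these marker differences in the results that follow was not tested.

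Of the 32 genes, 20 were lower and 2 were higher in the GLCC1 libraries by edgeR's quasi-likelihood test at an adjusted p under 0.05, and 10 were not called. In the whole table, 16.7% of genes were called lower and 14.9% higher, and among the 14875 genes whose mean level reached 1 CPM, as that of all 32 did, 24.8% were lower and 20.3% higher. The median log2 fold change of the 32 genes was -0.44, against 0.03 for all genes tested and -0.03 for those that reached 1 CPM. With library totals as the only scaling, which moved the median of all genes to 0.15, 17 of the 32 genes were lower and 3 higher, and over all genes 2797 were lower and 4735 higher in place of 3864 and 3429. A fold change here is the level in the GLCC1 libraries over that in the control libraries. In 26 of the genes, each GLCC1 library lay below each control library, against 24.0% of all genes and 32.4% of those that reached 1 CPM, and in 3 (ACACA, ELOVL6 and FADS2) each lay above, against 22.3% and 26.7%. In bulk RNA, a smaller share of cells that express a gene and less of its RNA in each cell cannot be told apart.

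The shift was of like size in each GLCC1 library. Relative to the mean of the control libraries, the median log2 level of the 32 genes was -0.42, -0.39 and -0.36 in GLCC1 replicates 1, 2 and 3, and -0.03, 0.04 and -0.01 in control replicates 1, 2 and 3. Their summed level was 2833 to 3036 CPM in control and 2089 to 2356 CPM in GLCC1 libraries. Without GLCC1 replicate 2, 23 genes were lower and 4 higher, with a median of -0.38, where 22.6% of all genes were lower and 21.6% higher.

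**Figure D1:**
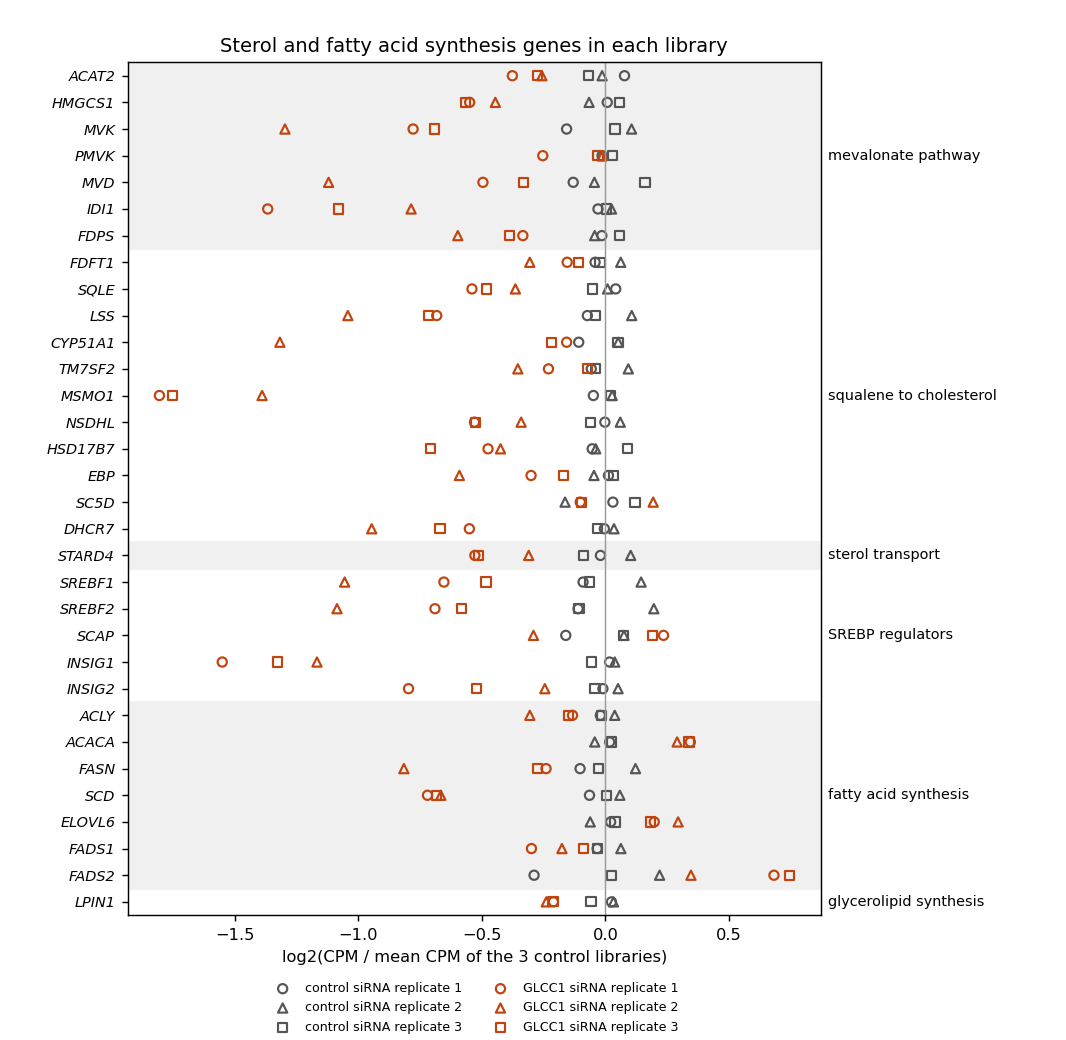
Level of each of the 32 genes in each library, as the log2 of CPM over the mean CPM of the 3 control libraries. Circles, triangles and squares are replicates 1, 2 and 3, grey for control siRNA and red-brown for GLCC1 siRNA. For MSMO1, INSIG1 and IDI1 the red-brown symbols lie far to the left of the grey ones, and for ACACA, ELOVL6 and FADS2 they lie to the right.

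The genes of the SREBP system are taken first. INSIG1, the sterol-sensitive ER anchor of SCAP, was at 71.4, 72.4 and 67.9 CPM in the control libraries and at 24.1, 31.4 and 28.1 CPM in the GLCC1 libraries. The groups were far apart, and the GLCC1 libraries differed more among themselves than the controls did. INSIG1 fell by 1.34 on the log2 scale (SE 0.11, 2.54-fold lower, adjusted p = 8.2e-07, edgeR quasi-likelihood test, n = 3 per group).

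INSIG2, the second anchor, which is less dependent on SREBPs, was at 89.2, 93.1 and 87.3 CPM in control and at 51.7, 75.8 and 62.6 CPM in GLCC1 libraries. All GLCC1 libraries were below the controls, but they spread more widely, with replicate 2 the closest to the control level. INSIG2 fell by 0.51 on the log2 scale (SE 0.12, adjusted p = 0.0050).

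SREBF2 encodes the SREBP that acts mainly on cholesterol synthesis. Its levels were 103, 127 and 103 CPM in control and 68.7, 52.2 and 73.9 CPM in GLCC1 libraries. The groups did not overlap, and the highest control and the lowest GLCC1 library were both replicate 2. SREBF2 fell by 0.77 on the log2 scale (SE 0.13, 1.70-fold lower, adjusted p = 4.2e-04), and by 0.63 without GLCC1 replicate 2.

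SREBF1, whose products act mainly on fatty acid synthesis, showed the same order of libraries. It was at 122, 144 and 124 CPM in control and at 82.8, 62.7 and 93.2 CPM in GLCC1 libraries. It fell by 0.71 on the log2 scale (SE 0.13, 1.63-fold lower, adjusted p = 7.6e-04), and by 0.56 without GLCC1 replicate 2.

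SCAP, the escort of both SREBPs, was at 83.5, 98.3 and 98.2 CPM in control and at 110, 76.3 and 107 CPM in GLCC1 libraries. GLCC1 replicates 1 and 3 lay above each control and replicate 2 below each control, so that the groups overlapped. The log2 fold change was 0.07 (SE 0.13, adjusted p = 0.73), and without GLCC1 replicate 2 it was 0.22 (SE 0.06, adjusted p = 0.0025), a call that rests on leaving that library out.

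The promoters of INSIG1, MSMO1 and SREBF2 are shown because INSIG1 and MSMO1 fell most of the 32 genes and SREBF2 is a regulator that fell with them. SREBPs bind short sterol regulatory elements and act together with the factor NF-Y, which binds CCAAT boxes. The sequences are from RefSeq (GRCh38.p14, another build than the hg19 of the counts), from 250 bases before to 50 bases after the start site, 5′ to 3′ on the gene's strand. They lie at chr7:155297628-155297927 (+), chr4:165327419-165327718 (+) and chr22:41832855-41833154 (+). Capitals mark CCAAT or its reverse complement ATTGG, and matches to TCACNCCAC on either strand.

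INSIG1: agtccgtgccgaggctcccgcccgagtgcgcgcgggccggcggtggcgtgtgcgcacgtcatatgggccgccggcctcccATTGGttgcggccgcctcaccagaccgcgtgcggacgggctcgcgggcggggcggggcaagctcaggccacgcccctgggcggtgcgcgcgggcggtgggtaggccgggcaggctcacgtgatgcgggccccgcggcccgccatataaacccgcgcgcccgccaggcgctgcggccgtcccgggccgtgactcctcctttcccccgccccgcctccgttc

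MSMO1: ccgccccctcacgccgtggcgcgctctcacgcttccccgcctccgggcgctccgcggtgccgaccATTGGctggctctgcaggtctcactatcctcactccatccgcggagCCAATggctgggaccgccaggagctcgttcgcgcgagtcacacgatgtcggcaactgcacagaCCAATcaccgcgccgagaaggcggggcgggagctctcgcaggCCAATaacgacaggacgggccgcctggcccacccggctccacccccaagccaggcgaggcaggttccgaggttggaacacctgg

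SREBF2: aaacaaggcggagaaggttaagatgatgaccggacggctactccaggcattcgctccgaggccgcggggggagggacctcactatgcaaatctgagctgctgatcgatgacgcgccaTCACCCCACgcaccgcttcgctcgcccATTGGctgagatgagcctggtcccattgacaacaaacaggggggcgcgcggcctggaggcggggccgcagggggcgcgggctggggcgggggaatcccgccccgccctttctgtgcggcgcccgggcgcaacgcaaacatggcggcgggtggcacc

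The MSMO1 window holds 4 CCAAT words and those of INSIG1 and SREBF2 hold 1 each. Over the 28 of 32 genes with a promoter in the RefSeq table, 20 held CCAAT on either strand (71.4%), against 39.7% of 27305 genes. Of the 17 matched genes that fell, 15 held it, and so did ACACA, ACLY, FADS2, SC5D and TM7SF2, which were not called lower. No share among all genes that fell was taken. The word GGGCGG, bound by SP1-like factors, was in the windows of 27 of 28 genes (96.4%), against 48.3% of all genes, and CACGTG, an E-box, was in 4 (14.3%, against 8.77%). TCACNCCAC, a spelling of the sterol regulatory element, was found in SREBF2 alone among the 28 (1.39% of all genes). Each word was searched on both strands, no word contains another, and a gene counted as holding a word if any of its promoters did. The shares of all genes were taken over every gene with a RefSeq promoter, including those that did not reach 1 CPM. All 32 genes reached 1 CPM, and no share among such genes was taken. These matches describe the windows and are not evidence of binding.

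In the mevalonate pathway, 6 of 7 genes fell (85.7%, against 24.8% of genes that reached 1 CPM), with a median log2 fold change of -0.52. IDI1, the isomerase that makes the second of the isoprenoid building blocks, was at 65.7, 68.2 and 67.3 CPM in control and at 26.02, 38.9 and 31.7 CPM in GLCC1 libraries. The control libraries were close together, and GLCC1 replicate 2 was again the GLCC1 library nearest to them. IDI1 fell by 1.07 on the log2 scale (SE 0.12, 2.09-fold lower, adjusted p = 2.5e-05, edgeR).

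MVK, mevalonate kinase, was at 14.2, 17.03 and 16.3 CPM in control and at 9.23, 6.44 and 9.79 CPM in GLCC1 libraries. The groups were apart, with GLCC1 replicate 2 the lowest library. MVK fell by 0.88 on the log2 scale (SE 0.15, 1.84-fold lower, adjusted p = 5.5e-04).

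MVD, which decarboxylates the doubly phosphorylated mevalonate, was at 22.9, 24.3 and 28 CPM in control and at 17.8, 11.5 and 19.9 CPM in GLCC1 libraries. The groups did not overlap, and GLCC1 replicate 2 was well below the other GLCC1 libraries. MVD fell by 0.60 on the log2 scale (SE 0.16, 1.51-fold lower, adjusted p = 0.012) and by 0.41 without GLCC1 replicate 2 (adjusted p = 2.0e-04), while the call was lost without control replicate 3 (-0.51, adjusted p = 0.073).

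HMGCS1, the synthase that commits acetoacetyl-CoA to the pathway, fell by 0.52 on the log2 scale (SE 0.09, adjusted p = 3.9e-04), from 90.1 ± 3.84 to 62.9 ± 2.86 CPM (mean ± SD, n = 3 per group). FDPS, the synthase of farnesyl diphosphate, fell by 0.43 (SE 0.10, adjusted p = 0.0033). ACAT2, the cytosolic thiolase at the entry of the pathway, fell by 0.30 (SE 0.10, adjusted p = 0.026). PMVK, the kinase between MVK and MVD, was at 17.7 ± 0.31 CPM in control and 16.5 ± 1.5 CPM in GLCC1 libraries, with overlapping groups and a log2 fold change of -0.10 (SE 0.11, adjusted p = 0.53). The ACAT2 call was lost in 5 of the 6 fits that left out 1 library, with adjusted p-values of 0.053 to 0.13. It was also lost with library totals as the only scaling (adjusted p = 0.18). Under that scaling PMVK changed sign, to a log2 fold change of 0.023, and was not called (adjusted p = 0.89, edgeR).

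Of the 11 genes from squalene to cholesterol, 7 fell (63.6%, against 24.8% of genes that reached 1 CPM). None was higher by the edgeR test, and the median was -0.46. MSMO1, the oxidase that starts the removal of methyl groups from sterol intermediates, changed most of all 32 genes. It was at 54.6, 57.5 and 57.3 CPM in control and at 16.2, 21.6 and 16.8 CPM in GLCC1 libraries. The control libraries were close together, and the highest GLCC1 library, replicate 2, lay far below the lowest of them. MSMO1 fell by 1.65 on the log2 scale (SE 0.11, 3.13-fold lower, adjusted p = 3.2e-07).

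LSS, which closes the sterol ring system, was at 109, 124 and 112 CPM in control and at 71.6, 55.8 and 70.0 CPM in GLCC1 libraries. Each GLCC1 library was below each control library, with replicate 2 the lowest. LSS fell by 0.80 on the log2 scale (SE 0.10, 1.74-fold lower, adjusted p = 6.2e-05).

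DHCR7, the reductase that turns dehydrocholesterol into cholesterol, was at 73.2, 75.2 and 71.8 CPM in control and at 50.1, 38.1 and 46.1 CPM in GLCC1 libraries. The control libraries hardly differed, and the GLCC1 libraries were all lower. DHCR7 fell by 0.71 on the log2 scale (SE 0.10, 1.63-fold lower, adjusted p = 1.7e-04).

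The other 4 genes that fell here did so by less. HSD17B7, a sterol ketoreductase, fell by 0.53 on the log2 scale (SE 0.12, adjusted p = 0.0038), and NSDHL, a dehydrogenase of the same demethylation steps, fell by 0.47 (SE 0.10, adjusted p = 0.0026). SQLE, the squalene epoxidase, fell by 0.46 (SE 0.09, adjusted p = 0.0014), and EBP, a sterol isomerase, by 0.34 (SE 0.11, adjusted p = 0.028). The EBP call was lost in 4 of the 6 fits without 1 library (adjusted p 0.056 to 0.11) and with library totals as the only scaling (0.13). STARD4, which carries cholesterol between membranes, fell by 0.45 on the log2 scale (SE 0.10, adjusted p = 0.0025).

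For 4 genes of the squalene to cholesterol steps the test made no call. FDFT1, squalene synthase, had a log2 fold change of -0.19 (SE 0.09, adjusted p = 0.11), and TM7SF2, a sterol reductase, of -0.21 (SE 0.10, adjusted p = 0.14). CYP51A1, the lanosterol demethylase, was the least expressed of the 32 genes, at 4.36 ± 0.27 CPM in control and 3.14 ± 1.2 CPM in GLCC1 libraries, with a log2 fold change of -0.43 (SE 0.24, adjusted p = 0.19). In GLCC1 replicate 2 it had 22 read pairs, against 59 to 82 in the other 5 libraries, and without that library its log2 fold change was -0.19. SC5D, the sterol desaturase before DHCR7, was at 36.6 ± 3.60 CPM in control and 36.7 ± 4.43 CPM in GLCC1 libraries, with a log2 fold change of 0.00 (SE 0.11, adjusted p = 0.99).

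Several of these genes share exon positions with others in GENCODE 44. The counting mode gives read pairs that fall on 2 genes to neither, and since no strand setting is stated, antisense reads cannot be told apart. In CYP51A1, 68.2% of the exon length was covered by another gene, in HMGCS1 37.7%, in EBP 36.4%, in FDPS 18.6%, in ACAT2 17.2% and in IDI1 14.97%. The annotation with which the counts were made was not used here, so these shares show where genes overlap in GENCODE 44 and not how many read pairs were lost. MSMO1, INSIG1 and INSIG2 had no such overlap.

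**Figure D2:**
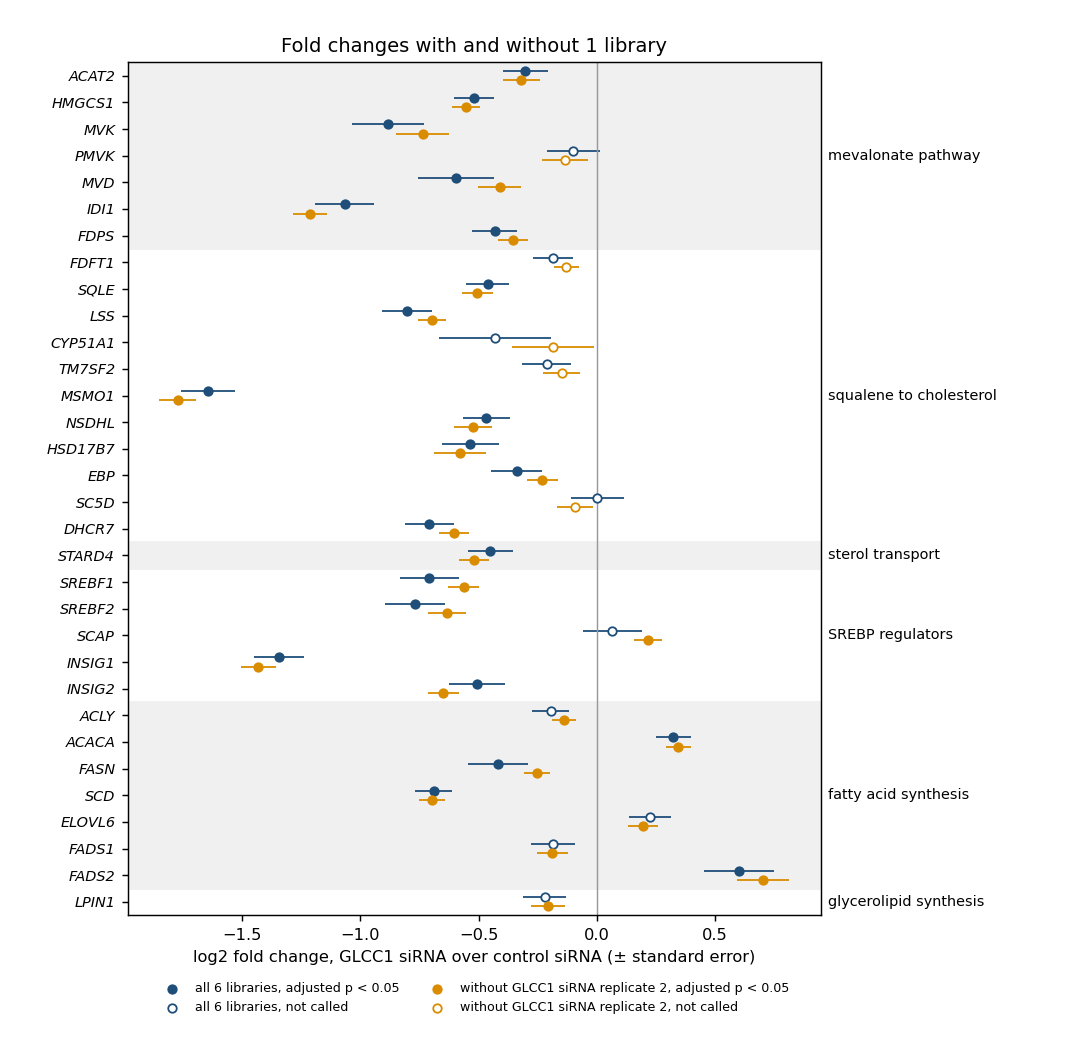
Log2 fold change of each gene (GLCC1 over control siRNA) with its standard error, from all 6 libraries (blue) and without GLCC1 siRNA replicate 2 (orange). Filled circles had an adjusted p under 0.05 and open circles did not. MSMO1, INSIG1 and IDI1 lie farthest left in both fits, and SCAP, ACLY, ELOVL6, FADS1 and LPIN1 were called without that library.

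Of the 7 genes of fatty acid synthesis and desaturation, 2 fell and 2 rose (28.6% each), which is near the 24.8% and 20.3% of genes that reached 1 CPM, and the median log2 fold change was -0.19. SCD, the desaturase that makes oleic acid, was at 214, 233 and 225 CPM in control and at 136, 141 and 140 CPM in GLCC1 libraries. The GLCC1 libraries were close to each other and all far below the controls. SCD fell by 0.69 on the log2 scale (SE 0.08, 1.61-fold lower, adjusted p = 1.7e-05).

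FADS2, the desaturase of polyunsaturated fatty acids, was at 8.91, 12.7 and 11.1 CPM in control and at 17.5, 13.8 and 18.2 CPM in GLCC1 libraries. Each GLCC1 library was above each control library, although replicate 2 of both groups came close to the other. FADS2 rose by 0.60 on the log2 scale (SE 0.15, 1.52-fold higher, adjusted p = 0.0068). FADS1, which desaturates the same fatty acids at another position, had a log2 fold change of -0.19 (SE 0.09, adjusted p = 0.14).

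ACACA, acetyl-CoA carboxylase, which catalyses the rate-limiting step of fatty acid synthesis, rose by 0.32 on the log2 scale (SE 0.08, adjusted p = 0.0045), from 184 ± 4.75 to 230 ± 4.65 CPM. FASN, the fatty acid synthase that takes up the product of ACACA, was at 436, 509 and 459 CPM in control and at 396, 266 and 387 CPM in GLCC1 libraries. The groups did not overlap, but replicates 1 and 3 of the GLCC1 libraries were close to the lowest control. FASN fell by 0.42 on the log2 scale (SE 0.13, adjusted p = 0.023) and by 0.25 without GLCC1 replicate 2 (adjusted p = 1.7e-04). The call was lost without control replicate 2 (-0.36, adjusted p = 0.12) and without control replicate 3 (-0.43, adjusted p = 0.063), and with library totals as the only scaling (-0.30, adjusted p = 0.081).

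The remaining lipogenic genes were not called. ACLY, the citrate lyase that supplies cytosolic acetyl-CoA, had a log2 fold change of -0.19 (SE 0.08, adjusted p = 0.076), ELOVL6, an elongase, of 0.22 (SE 0.09, adjusted p = 0.068), and LPIN1 of -0.22 (SE 0.09, adjusted p = 0.081). Without GLCC1 replicate 2, ACLY, FADS1 and LPIN1 were lower (-0.14, -0.19 and -0.21) and ELOVL6 was higher (0.19) at adjusted p-values of 0.011 to 0.026.

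Of the 32 genes, 10 were lower by at least 1.5-fold and called, namely MVK, MVD, IDI1, LSS, MSMO1, DHCR7, SREBF1, SREBF2, INSIG1 and SCD, against 8.57% of all genes. FADS2 alone was higher by that much, against 8.79% of all genes. Both shares are over all genes tested, including those below 1 CPM, a level that all 32 genes reached. Levels per kilobase of the canonical transcript differed widely among the genes in the control libraries. ACLY had the highest level at 92.7 CPM per kb, followed by FDFT1 at 62.0, FASN at 55.3 and EBP at 50.6 CPM per kb. The genes that fell most lay below these and above most of the 32 genes, with MSMO1 at 25.4, IDI1 at 24.5 and INSIG1 at 24.3 CPM per kb. FADS2 at 3.52 and CYP51A1 at 1.38 CPM per kb were the lowest.

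GLCC1 replicate 2 deviated from the other GLCC1 libraries along the GC content of the transcripts, which ran from 34.4% to 65.5% over the 32 genes. Of the 12 genes with at least 55% GC, 11 were lower in replicate 2 than in the mean of replicates 1 and 3, with a median log2 difference of -0.41. Of the 9 genes under 45% GC, 8 were higher there, with a median of 0.27. Across the 32 genes, Pearson's r between GC content and this difference was -0.66 and Spearman's rho was -0.75; the points share 3 libraries and give a description only. The log2 fold change over all 6 libraries had r = 0.15 and rho = 0.08 with GC content. MVD, FASN, SREBF1 and SREBF2 were among the genes that replicate 2 lowered, and IDI1, INSIG2 and MSMO1 among those that it raised towards the control level.

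**Figure D3:**
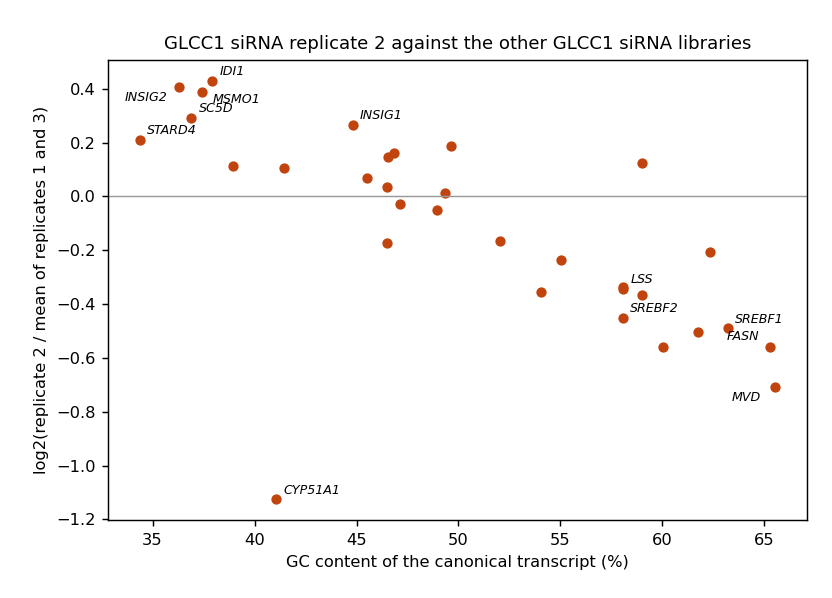
Log2 ratio of the level in GLCC1 siRNA replicate 2 to the mean of replicates 1 and 3 for each of the 32 genes, against the GC content of the canonical transcript in %. The GC-rich genes MVD, FASN and SREBF1 lie below 0 and the GC-poor genes IDI1, INSIG2 and MSMO1 above it, while CYP51A1, with 22 read pairs in replicate 2, lies apart at the bottom.

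Related lipid genes were read from 5 further lists. The proteins that move, cleave or degrade the SREBP system in the ER and Golgi make the closest list, in which 7 of 18 genes were lower (38.9%) and 2 higher (11.1%), with a median log2 fold change of -0.10. The shares of the lists are to be read against the 24.8% lower and 20.3% higher of genes that reached 1 CPM. FAF2, which helps to draw ubiquitinated proteins out of the ER membrane, fell by 0.99 on the log2 scale, and MBTPS2, a Golgi protease that cleaves SREBPs, fell by 0.73. RNF145 and RNF139, ER ubiquitin ligases that act on proteins of the sterol pathway, rose by 0.65 and 0.49. Adjusted p-values of these 4 genes ran from 6.6e-06 to 9.7e-04 in edgeR.

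Of 23 genes of fatty acid oxidation, the breakdown counterpart, 11 were higher (47.8%, against 20.3%) and 1 (ACOX3) was lower (4.35%, against 24.8%), with a median of 0.20. SLC25A20, the mitochondrial carnitine carrier, rose by 1.04 on the log2 scale from 12.6 ± 1.87 to 25.9 ± 2.08 CPM (adjusted p = 3.4e-05). ECI1 and DECR1, auxiliary enzymes for unsaturated fatty acids, rose by 0.84 and 0.79, and ACOX3, a peroxisomal oxidase, fell by 0.37 (adjusted p = 0.023). The ACOX3 call was lost with library totals as the only scaling, with the replicate number as a block, without GLCC1 replicate 1 and without any 1 of the control libraries (adjusted p 0.055 to 0.11).

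The oxysterol, LXR and sterol export list had 5 higher (33.3%) and 4 lower (26.7%) of the 15 tested among 17 genes, and a median of 0.05. ABCA1, the exporter of cholesterol to apolipoproteins, rose by 2.29 on the log2 scale but from 0.50 ± 0.08 to only 2.50 ± 0.03 CPM. ABCG1, another exporter, fell by 1.40, NR1H2, the sterol receptor LXR-beta, by 1.32, and NPC1, the lysosomal cholesterol transporter, by 0.68. OSBPL8 and OSBPL5, of the oxysterol-binding family, rose by 0.78 and 0.61. The genes not tested were CH25H and CYP7B1, with 0 read pairs in each library.

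In the isoprenoid branches, 5 of 15 genes were lower (33.3%) and 2 higher (13.3%), with a median of -0.16, and leaving out any 1 control library left 2 lower. PDSS1, FNTB and RABGGTA, which make the ubiquinone side chain or attach prenyl groups to proteins, fell by 0.60, 0.50 and 0.44 on the log2 scale, and FNTB and RABGGTA lost their calls with library totals as the only scaling and in several fits without 1 library (adjusted p 0.061 to 0.087). ICMT and PDSS2 rose by 0.49 and 0.43. Among other lipogenic genes, 9 of the 27 tested were lower (33.3%) and 5 higher (18.5%), with a median of -0.07. ACSL5, ME1 and PTPLA rose by 1.21, 0.77 and 0.57 on the log2 scale, while ACSL4, FADS3 and PNPLA3 fell by 1.2, 1.19 and 0.96. The acyl-CoA synthetases ACSL5 and ACSL4 thus stood on opposite sides, at 40.3 ± 2.30 against 93.1 ± 3.34 CPM and at 82.4 ± 2.44 against 36.0 ± 5.19 CPM in control and GLCC1 libraries.

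**Figure D4:**
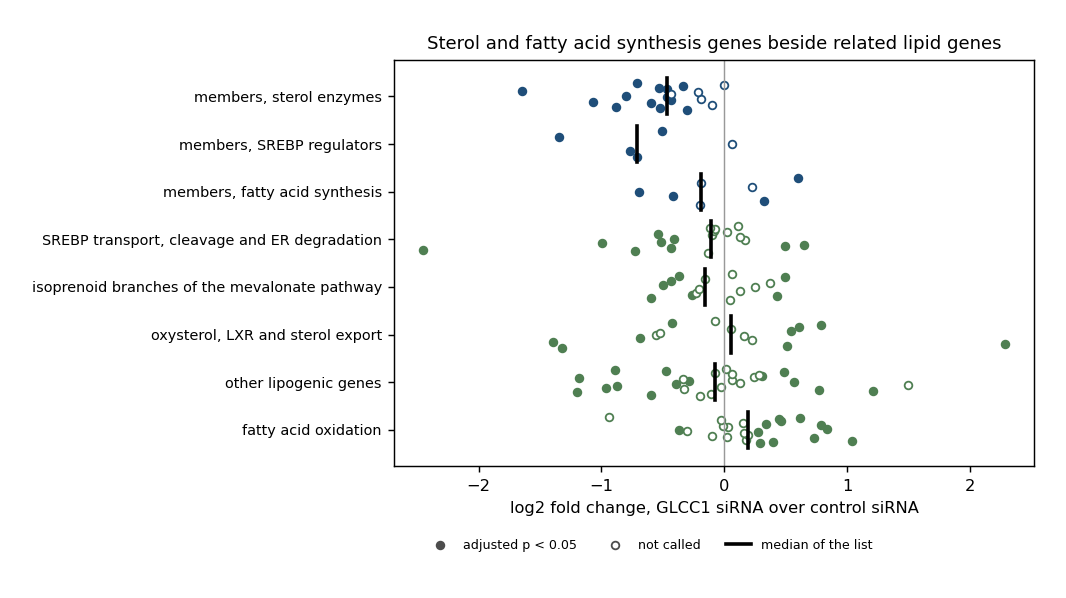
Log2 fold changes (GLCC1 over control siRNA) of the 32 genes by role (blue) and of 5 lists of related lipid genes (green), each circle a gene and filled where the adjusted p was under 0.05. Black bars are list medians. The sterol enzymes and SREBP regulators lie mostly left of 0, and fatty acid oxidation, with a median of 0.20, mostly right of it.

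The 3′ UTRs of the 32 genes were searched for words that pair with the start of an siRNA strand, because a strand can act on transcripts other than its target through its seed (bases 2 to 8). ACCTTGA pairs with bases 2 to 8 and CCTTGAA with bases 1 to 7 of the antisense strand of an siRNA against GLCC1 listed by the study, and ACCTTGAA holds both words. They were read from the GLCC1 sequence and searched on the sense strand of the mRNAs. Which siRNA the sequenced libraries received is not certain from the labels. The genotype label reads siRNA1, but the study lists more than 1 siRNA against GLCC1. The titles also number the siRNA, which was taken as the replicate number, and whether those numbers name different siRNAs is not stated. Words of another siRNA were not searched. The stretch of GLCC1 and sites in 2 mRNAs are shown with the words in capitals, on the strand of the gene in hg19, at chr13:99049528-99049557 (+), chr7:155100296-155100324 (+) and chr10:1086075-1086103 (-).

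GLCC1: ggaagagcaacACCTTGAAataggcactgt

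INSIG1: atatttcaaagCCTTGAActaagactcaa

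IDI1: ttaaaaattgtACCTTGAtcaatgtactt

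A word of 7 bases was in 7 of 32 genes (21.9%), against 21.2% of 11353 genes that reached 1 CPM and had a 3′ UTR of at least 50 bases. The 7 genes were IDI1 and SREBF2 (ACCTTGA) and CYP51A1, INSIG1, INSIG2, SC5D and SCD (CCTTGAA), of which CYP51A1 and SC5D were not called. The word of 8 bases was in none of the 32 genes, against 4.38% of the genes searched, and MSMO1, which fell most, had no such word. In the related lists, 4 of the 90 genes searched held the word of 8 bases (4.44%), and 1 of these is not reported here. Of the others, NR1H2 held it at 1 place and fell, and OSBPL5 held it at 1 place and rose. ACADSB, with 2 places, had a log2 fold change of -0.10 (adjusted p = 0.59, edgeR). A match to a word is a description of the sequence, and its part in the level of any gene was not tested.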

How the data were processed

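Each library has a table of raw counts, deposited by the authors, that gives the number of read pairs on every gene symbol without normalization. According to the study's methods and the submitters' processing notes, paired-end reads were mapped to hg19 with TopHat2 2.0.11 and counted by HTSeq in union mode; its version and strand setting are not given in the sources used here. The tallies for read pairs given to no gene were set aside. They took 30.0% to 30.9% of all read pairs of a library, of which reads on no feature were 9.82% to 10.1% in control and 11.0% to 12.7% in GLCC1 libraries. No column of other samples was present (0).

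Libraries were grouped by title. A gene was kept if its counts summed to at least 5 in the control or in the GLCC1 libraries, after the study's methods. Counts were compared in edgeR 4.0.16 (R 4.3.3) with TMM factors of 0.950 to 1.05 and the robust quasi-likelihood test, with Benjamini-Hochberg adjustment over all 23074 genes and none over the list alone. CPM values use the same factors. With 3 libraries against 3, no exact permutation test on 1 gene can give p under 0.1, so each p is from the fit across genes. The script was tested on simulated data, where more of its calls fell on unchanged genes than the threshold allows.

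The members and all lists were chosen with earlier results of these data known. Genes called with a fold of at least 1.5 and SREBP regulators were given in every library, and each related list was named by its up to 3 largest changes per direction at a mean of at least 1 CPM. A gene that this rule names is not reported here. FASN was given in every library and ACADSB was named, and PPARA in the closing section, after their values were seen.

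Same-numbered libraries of both groups had deviations that correlated by -0.29 to -0.01 (14875 genes), so the numbers were not taken to pair libraries. Gene models, 3′ UTRs and GC content are from GENCODE 44 mapped to hg19, promoters from RefSeq. DESeq2 1.42.0, other scalings and filters, a replicate block and each library left out were tried as alternatives. Python 3.11.15 with pandas 2.3.3, pysam 0.24.0 and matplotlib 3.10.9 did the rest.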

Additional observations from a re-analysis of the deposited data

How the results depend on the processing

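DESeq2's Wald test and DESeq2 size factors in edgeR kept the call and direction of each of the 32 genes. Library totals as the only scaling moved the median of all genes by 0.12 on the log2 scale and turned the calls over all genes from 3429 higher and 3864 lower to 4735 higher and 2797 lower. Under it, 3 of the 32 genes were higher and 17 lower, with a median of -0.32 against 0.15 for all genes. ACAT2, EBP and FASN lost their calls (adjusted p 0.18, 0.13 and 0.081), and ELOVL6 was called at a log2 fold change of 0.35. PMVK changed sign, to a log2 fold change of 0.023, and was not called (adjusted p = 0.89, edgeR). Library totals also gave 4 higher SREBP transport genes, 4 higher and 1 lower isoprenoid genes and 0 lower fatty acid oxidation genes. With at least 10 counts in every library the median of the 32 genes was -0.40, and with at least 1 count in any library 2 oxidation genes were lower. The replicate block gave 2 higher and 19 lower of the 32 genes and 0 lower oxidation genes, and ACAT2 lost its call (adjusted p = 0.081); no other of the 32 calls changed. Leaving out 1 library at a time gave 2 to 4 higher and 16 to 23 lower of the 32 genes (medians -0.46 to -0.38), with 4 and 23 without GLCC1 replicate 2. It gave 2 to 4 higher SREBP transport genes, 2 to 7 lower isoprenoid genes (2 when any 1 control library was left out, 3 without GLCC1 replicate 3, 7 without GLCC1 replicate 2), 4 to 8 higher other lipogenic genes and 0 to 3 lower oxidation genes. SC5D ran from -0.092 (without GLCC1 replicate 2) to 0.065 and was -0.076 without control replicate 2, and SCAP ran from -0.022 (without GLCC1 replicate 1) to 0.22 and was -0.0081 without control replicate 1, with no call except for SCAP at 0.22. A log2 fold change had a standard error of 0.08 for SCD and 0.24 for CYP51A1, the least counted of the genes.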

Other observations

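PPARA, the nuclear receptor that switches on fatty acid oxidation genes, rose by 0.61 on the log2 scale in the GLCC1 libraries (SE 0.08, adjusted p = 5.7e-05, edgeR). ACADVL, the acyl-CoA dehydrogenase of very long chains, rose by 0.73 (SE 0.08, adjusted p = 2.3e-05). These 2 genes of the oxidation list were chosen after their values were seen. No explanation was tested.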
